A study of Mus musculus with 6 samples.

Results

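Type I interferon-stimulated genes were described across the lungs of 6 mice that had received endotoxin. The group is a list of 33 genes. Its rule goes by name and uses no measured value, but the list was drawn up with earlier results of these data known. A gene was taken into the comparison through array probes whose RefSeq transcript belongs to it, and 31 of the 33 genes had such a probe, out of 32456 genes and unnamed probes tested in all. Mx1 and Mx2 had none. All mice were male C57BL6 mice, 10 weeks old, that had gone 16 h without food and then received lipopolysaccharide (LPS), the outer membrane component of Gram-negative bacteria, at 20 mg/kg into the peritoneum. At 3 h and 24 h after LPS, 3 of them received saline and 3 received recombinant antithrombin at 750 IU/kg. Antithrombin circulates in plasma and inactivates thrombin and other clotting proteases. Total RNA was taken from the lung at 30 h and hybridised to 1-colour Agilent arrays, 1 array per mouse. No mouse without LPS was analysed here, so the values compare antithrombin with saline on a background of endotoxin and do not show what endotoxin itself did to these genes.

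Type I interferons are the interferon alpha and beta cytokines. Endotoxin induces interferon beta when its receptor TLR4 signals from endosomes through the adaptors TICAM2 and TICAM1 to the kinase TBK1 and the transcription factor IRF3. Secreted interferon then binds the receptor pair IFNAR1 and IFNAR2 on the same or neighbouring cells, and the kinases JAK1 and TYK2 phosphorylate STAT2. STAT2 and IRF9 are parts of the complex ISGF3, which binds the interferon-stimulated response element (ISRE) in the promoters of the genes described here. Their products sense viral nucleic acids, block steps of viral replication, modify proteins with ubiquitin-like tags and ADP-ribose, and load antigen on class I molecules. The lung is rich in cells that respond to interferon, among them macrophages, endothelium and epithelium.

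The core of the ISRE is a pair of GAAA blocks set apart by any pair of bases, so GAAANNGAAA and its reverse complement TTTCNNTTTC were searched on both strands in the RefSeq promoter windows of GRCm38.p6, which run from 250 bases before to 50 bases after the transcript start. Of all 32851 windows 3.44% held a match, and overlapping matches were allowed. A window was given for 24 of the 31 genes, and 10 of these (41.7%) held a match, against 3.99% of all genes with a window. The match lay wholly before the start in 7 genes. These 7 are shown with their flanks because they are the stretches in which the shared element can be read, 5′ to 3′ on the strand of the gene, with the matches in capitals.
Isg15, chr4:156200855-156200916, minus strand: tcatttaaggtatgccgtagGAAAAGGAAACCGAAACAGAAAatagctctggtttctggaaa
Ifit1, chr19:34640765-34640833, plus strand: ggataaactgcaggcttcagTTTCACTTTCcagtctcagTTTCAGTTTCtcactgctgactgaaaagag
Ifit3, chr19:34583353-34583436, plus strand: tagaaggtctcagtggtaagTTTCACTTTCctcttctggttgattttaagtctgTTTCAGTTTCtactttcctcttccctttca
Bst2, chr8:71537567-71537622, minus strand: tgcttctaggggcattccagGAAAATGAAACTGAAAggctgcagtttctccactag
Rsad2, chr12:26456543-26456592, minus strand: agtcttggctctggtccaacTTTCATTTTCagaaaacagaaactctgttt
Stat2, chr10:128270256-128270305, plus strand: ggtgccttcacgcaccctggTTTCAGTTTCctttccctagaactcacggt
Trim30a, chr7:104465200-104465249, minus strand: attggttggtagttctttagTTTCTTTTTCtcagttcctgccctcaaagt

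Isg15 held 3 overlapping matches from position -78, where -1 is the last base before the transcript start. Bst2 held 2 overlapping matches from position -130. Ifit1 and Ifit3 held 2 separate matches each, from -104 and from -156, and both genes carry the same pair of cores, TTTCACTTTC followed by TTTCAGTTTC. Ifih1, Ddx58 and Eif2ak2 had their match after the start. The 14 genes with a window but no match include Ifit2, Irf7 and Xaf1. A match is a description of these letters and does not show that the site is bound, and no match says only that these letters are not in this window.

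Across the series the arrays were alike in quality. The share of probes well above background ran from 69.8% to 72.1% per array, with 0 saturated spots. The markers of alveolar and airway epithelium measured here, among them the surfactant genes Sftpc and Sftpb and the club cell gene Scgb1a1, were all well above background, as the lung label requires. Over all genes tested, the share past an adjusted p of 0.05 (limma, Benjamini-Hochberg) was 0.00616%, or 2 of 32456, with all 6 mice. Without saline mouse 2, the low mouse for most genes described below, 4.65% of all genes were higher and 5.88% lower past the same threshold, so that 1 array decides the count over the whole table. The number of arrays, 3 per group, limits the precision of every value.

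Antithrombin and saline mice did not differ past the adjusted threshold in any of the 31 interferon-stimulated genes. In 27 of them the range among the saline mice was wider than the difference between the groups. The exceptions were Isg20, Bst2, Ifi35 and Trim30a. How many of all genes tested had such a range was not counted, so the 27 cannot be called unusual. At an unadjusted p under 0.05, 4 genes were higher after antithrombin (limma), where 8.73% of all genes tested were, and 0 were lower, where 12.9% were. These 4 were Isg20, Bst2, Ifi35 and Trim30a, with adjusted p from 0.153 to 0.226. A share of 4 in 31 is near the background share of all genes. The difference, antithrombin minus saline on the log2 scale, was positive in 22 genes and negative in 9, with a median of 0.11, against a median of -0.05 over all genes tested, of which 43% were positive. The 3 antithrombin values lay above all 3 saline values in 6 genes (Irf9, Isg20, Bst2, Ifi35, Trim30a and Parp14), where 10.7% of all genes did so. They lay below all 3 in 0 genes, where 18.1% of all genes did so. In bulk lung, fewer cells of a type and less RNA per cell cannot be told apart.

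**Figure D1:**
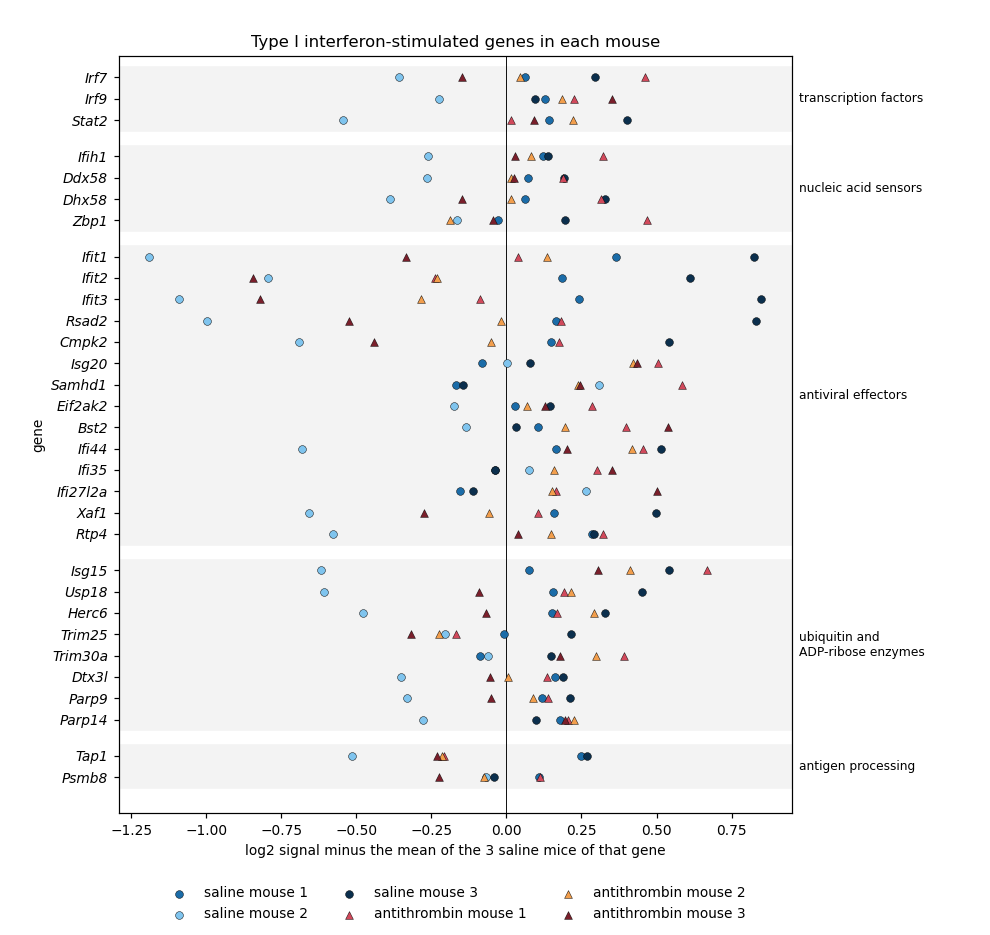
Log2 signal of each of the 31 genes in each of the 6 mice, minus the mean of the 3 saline mice for that gene, grouped by what the gene product does. Circles are saline mice and triangles antithrombin mice; saline mouse 2 is the lowest of the 6 in 22 genes, and its lowest value relative to that mean belongs to Ifit1.

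The transcription factors of the pathway are themselves induced by interferon. All values below are log2 signals relative to the 75th percentile of the array. Irf7, the factor that amplifies interferon alpha production, stood at 6.50, 6.08 and 6.73 in saline mice 1, 2 and 3 and at 6.90, 6.49 and 6.29 in antithrombin mice 1, 2 and 3. Saline mouse 2 was lowest and antithrombin mouse 1 highest, and the groups overlapped (difference 0.12, SE 0.22, limma adjusted p = 0.765). Stat2, the transactivating part of ISGF3, stood at 3.03, 2.34 and 3.29 in the saline mice and at 2.91, 3.11 and 2.98 in the antithrombin mice. The 3 antithrombin values of Stat2 fell inside the saline range, between a low saline mouse 2 and a high saline mouse 3 (difference 0.11, SE 0.24, limma adjusted p = 0.806). Irf9, the DNA-binding part of ISGF3, stood at 3.22, 2.87 and 3.19 in the saline mice and at 3.32, 3.28 and 3.44 in the antithrombin mice. The Irf9 groups did not overlap, with saline mouse 2 again the lowest (difference 0.25, SE 0.13, limma adjusted p = 0.304).

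The 4 sensors of cytosolic nucleic acid had differences from 0.06 to 0.14, and none passed an unadjusted p of 0.05. Ifih1, which encodes the long double-stranded RNA sensor MDA5, stood at 1.30, 0.92 and 1.32 after saline and at 1.50, 1.26 and 1.21 after antithrombin. Ddx58, which encodes RIG-I, the sensor of RNA with a 5′ triphosphate, stood at 2.51, 2.17 and 2.63 after saline and at 2.63, 2.45 and 2.46 after antithrombin. In both genes saline mouse 2 was below the other 5 mice, which lay close together. Dhx58, the regulator LGP2 of these sensors, had the same low mouse, at 1.12, 0.67 and 1.39 after saline and 1.38, 1.08 and 0.91 after antithrombin. Zbp1, a sensor of Z-form nucleic acid that can start necroptosis, stood at 1.81, 1.67 and 2.03 after saline and at 2.30, 1.65 and 1.79 after antithrombin. Its values overlapped fully (difference 0.08, SE 0.20, limma adjusted p = 0.83), and a second probe of Zbp1, described below, behaved otherwise.

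The antiviral effectors held the widest spread. Ifit1, Ifit2 and Ifit3, which bind viral RNA, are neighbours on chromosome 19. Ifit1 stood at 1.64, 0.08 and 2.10 in saline mice 1, 2 and 3 and at 1.31, 1.41 and 0.94 in the antithrombin mice. Ifit3 stood at 4.06, 2.73 and 4.67 in the saline mice and at 3.73, 3.53 and 3.00 in the antithrombin mice. Ifit2 stood at -0.07, -1.05 and 0.36 in the saline mice and at -0.49, -0.48 and -1.09 in the antithrombin mice. Between the highest and the lowest saline mouse the signal differed 4.04-fold for Ifit1, 3.84-fold for Ifit3 and 2.65-fold for Ifit2, while all antithrombin values of Ifit1 and Ifit3 lay between these extremes. The groups differed by -0.05 (SE 0.49) for Ifit1, -0.40 (SE 0.48) for Ifit3 and -0.44 (SE 0.37) for Ifit2, with limma adjusted p of 0.956, 0.641 and 0.497. The 95% interval for Ifit1 ran from -1.22 to 1.12, so a change of more than 2-fold in either direction is within it.

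Rsad2, which encodes viperin, and Cmpk2, its neighbour on chromosome 12, both encode enzymes that act on nucleotides. Rsad2 stood at 0.55, -0.61 and 1.22 after saline and at 0.57, 0.37 and -0.13 after antithrombin. Cmpk2 stood at 0.92, 0.08 and 1.32 after saline and at 0.95, 0.73 and 0.34 after antithrombin. The order of the 6 mice was the same in both genes, with saline mouse 3 highest, saline mouse 2 lowest and antithrombin mouse 3 next to it. Xaf1, a pro-apoptotic factor, had the same highest and the same 2 lowest mice, at 2.68, 1.86 and 3.01 after saline and 2.62, 2.46 and 2.24 after antithrombin. Ifi44 stood at 0.53, -0.31 and 0.88 after saline and at 0.82, 0.79 and 0.57 after antithrombin, and Rtp4 at 4.70, 3.84 and 4.71 against 4.74, 4.56 and 4.46. In each of these 5 genes the limma adjusted p lay between 0.489 and 0.892.

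In other effectors saline mouse 2 was not low, or by little. Isg20, an RNA exonuclease, stood at 2.54, 2.62 and 2.70 after saline and at 3.13, 3.04 and 3.06 after antithrombin. The groups were tight and did not overlap, and the signal was 1.37-fold higher after antithrombin (difference 0.45, SE 0.10, 95% interval 0.21 to 0.70, limma adjusted p = 0.153), the smallest adjusted p of the 31 genes. The difference was the same when saline mouse 2 was left out (0.45, limma adjusted p = 0.057). With estimated array weights it was 0.48, and Isg20 was the 1 gene of the 31 past the adjustment (limma adjusted p = 0.0408), where 7.90% of all genes passed. Bst2, which encodes tetherin, the membrane protein that holds budding virions on the cell, stood at 4.12, 3.88 and 4.05 after saline and at 4.41, 4.21 and 4.55 after antithrombin (difference 0.38, SE 0.13, limma adjusted p = 0.19). Ifi35 stood at 4.23, 4.34 and 4.23 after saline and at 4.57, 4.43 and 4.62 after antithrombin (difference 0.27, SE 0.11, limma adjusted p = 0.216). Both were higher in 3 of 3 antithrombin mice than in any saline mouse, and neither passed the adjustment. Ifi27l2a stood at 5.93, 6.35 and 5.97 after saline and at 6.25, 6.23 and 6.58 after antithrombin, and Samhd1, a dNTP hydrolase, at 4.32, 4.79 and 4.34 against 5.07, 4.72 and 4.73. In these 2 genes saline mouse 2 was the highest saline mouse and lay among the antithrombin mice. Eif2ak2, the double-stranded RNA kinase PKR, stood at 0.65, 0.45 and 0.77 against 0.91, 0.69 and 0.75.

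**Figure D2:**
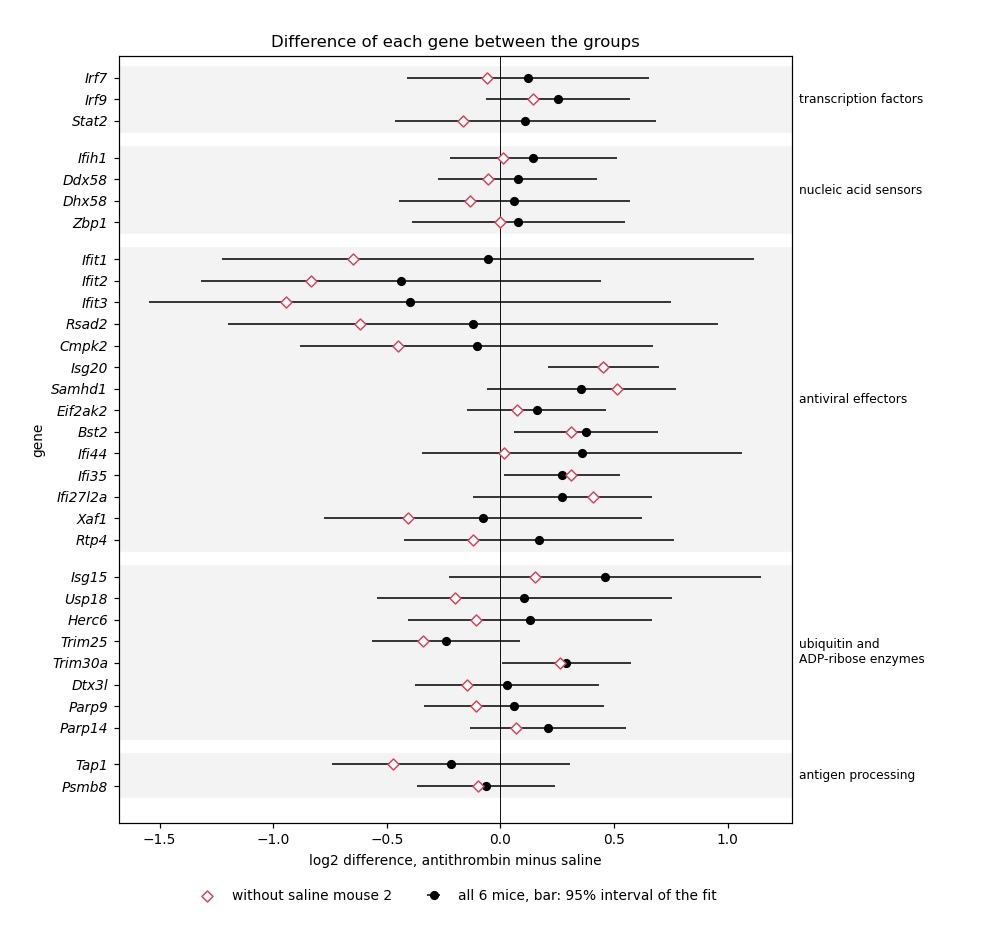
Log2 difference of each of the 31 genes, antithrombin minus saline, with the 95% interval of the limma fit over all 6 mice (black), and the same difference without saline mouse 2 (open diamonds). The intervals of Isg20, Bst2, Ifi35 and Trim30a lie above 0, and without saline mouse 2 the median of the differences moves from 0.11 to -0.10.

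Among the ubiquitin and ADP-ribose enzymes, Isg15, the ubiquitin-like modifier itself, stood at 4.64, 3.95 and 5.11 after saline and at 5.24, 4.98 and 4.87 after antithrombin. Saline mouse 2 was again the lowest, and the difference of 0.46 (SE 0.29, limma adjusted p = 0.371) became 0.15 without it. Usp18, the protease that removes ISG15 and dampens signalling at the receptor, stood at 1.78, 1.02 and 2.08 after saline and at 1.82, 1.84 and 1.53 after antithrombin. Herc6, an ISG15 ligase in mice, stood at -1.58, -2.21 and -1.41 against -1.57, -1.44 and -1.80. The modifier, its protease and its ligase had the same lowest mouse. Dtx3l and its partner Parp9 differed by 0.03 (SE 0.17) and 0.06 (SE 0.17), and Parp14 by 0.21 (SE 0.14). The Parp14 groups did not overlap, since the antithrombin mice stood at 3.33, 3.35 and 3.32 and the saline mice at 3.31, 2.85 and 3.23. In the second probe of Parp14 the groups overlapped, and the difference was -0.07 (SE 0.15). Of the TRIM family of ubiquitin ligases, Trim30a stood at 1.80, 1.83 and 2.03 after saline and at 2.28, 2.19 and 2.07 after antithrombin (difference 0.29, SE 0.12, limma adjusted p = 0.226), while Trim25, which acts with RIG-I, stood at 4.79, 4.59 and 5.02 against 4.63, 4.57 and 4.48 (difference -0.24, SE 0.14, limma adjusted p = 0.337). The sign for Trim25 depended on the probe, as given below.

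Both antigen processing genes, which lie on chromosome 17 with the class II genes, had negative differences in the brightest probe. The second probe of Tap1 had 0.04 (SE 0.28). Tap1, a subunit of the peptide transporter, stood at 2.65, 1.89 and 2.67 after saline and at 2.20, 2.19 and 2.17 after antithrombin. The antithrombin mice were almost identical and sat between a low saline mouse 2 and the other 2 saline mice (difference -0.22, SE 0.22, limma adjusted p = 0.571). Psmb8, a catalytic subunit of the immunoproteasome, stood at 3.50, 3.33 and 3.35 against 3.51, 3.32 and 3.17, with a difference of -0.06 (SE 0.13).

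Most of the 31 genes had the same lowest mouse, saline mouse 2. The first principal component of their values, centred but not scaled, so that genes of wide spread such as Ifit1 weigh most, held 79.4% of their variance, and saline mouse 2 stood at one end of it (-2.86) and saline mouse 3 at the other (2.21), with the antithrombin mice at 0.65, 0.20 and -1.04 and saline mouse 1 at 0.82. Over all genes tested the first component held 51.9%. Saline mouse 2 was the lowest of the 6 mice in 22 of the 31 genes, against 11.2% of all genes tested, and the lowest saline mouse in 26, against 39.3%. Saline mouse 3 was the highest of the 6 in 16, against 26.9%. Compared with the mean of saline mice 1 and 3, saline mouse 2 was lower in 27 genes, with a median gap of -0.58 on the log2 scale over these and of -0.53 over all 31, and by more than 1 in 6 genes (Ifit1, Ifit3, Rsad2, Ifit2, Cmpk2 and Ifi44). The 4 genes in which it was not lower were Isg20, Ifi35, Ifi27l2a and Samhd1. For Samhd1 this held for the brightest probe only, and the gap was -0.10 and -0.06 in its other probes. The second probe of Trim25 differed the other way, with a gap of 0.12 against -0.31 in the brightest. Over the 10 genes with an ISRE core in the promoter window the median of that gap was -0.61, and over the 14 with a window but no core it was -0.53.

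The spread among mice was wider after saline than after antithrombin. The median SD of the 31 genes was 0.30 among the 3 saline mice and 0.17 among the 3 antithrombin mice, while over all genes tested it was 0.19 and 0.15. The SD was larger in the saline group for 27 of the 31 genes, against 62.9% of all genes; the exceptions were Zbp1, Bst2, Ifi35 and Psmb8. With saline mouse 2 left out, the median SD of the 2 remaining saline mice was 0.12 over the 31 genes and 0.12 over all genes tested. An SD of 2 mice cannot be set directly against an SD of 3, and leaving out an outlying mouse narrows it by construction. The difference in spread between the groups was not tested. All arrays lay on 1 slide. Between the mice in its first row (saline 1 and 2, antithrombin 1 and 2) the median difference of the 31 genes was 0.27, and between the mice in its second row (saline 3, antithrombin 3) it was -0.25.

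The direction of many differences depended on which saline mouse was left out. Without saline mouse 3, the difference was positive in 27 of the 31 genes instead of 22, and the median was 0.25. Saline mouse 2 was low in most of these genes, so leaving it out had to lower those differences. Without saline mouse 2, the difference was positive in 12 of the 31 genes, and the median was -0.10. At an unadjusted p under 0.05, 4 genes were then higher (Isg20, Samhd1, Ifi35 and Ifi27l2a), where 13.5% of all genes were, and 5 were lower (Ifit1, Ifit2, Ifit3, Trim25 and Tap1), where 18.3% of all genes were. Ifit3 then differed by -0.94 (SE 0.28) and Ifit1 by -0.65 (SE 0.21), neither past the adjustment (limma adjusted p = 0.0864 and 0.101). Tap1 was the 1 gene past it, with -0.47 (SE 0.10, limma adjusted p = 0.0433), where 5.88% of all genes were lower past it. The groups then did not overlap in 15 genes, 8 higher and 7 lower, where 21.2% and 30.6% of all genes did so.

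Of the 31 genes, 15 had further probes, 18 in all, and every one of them was well above background. The sign of the difference was that of the brightest probe for 12 and the opposite for 6, which belonged to Samhd1, Trim25, Parp9, Parp14 and Tap1. The second probes of Parp9, Parp14 and Tap1 had differences of -0.27 (SE 0.25), -0.07 (SE 0.15) and 0.04 (SE 0.28). The brightest probe of Samhd1 had a difference of 0.36 (SE 0.17), and its other probes -0.42 (SE 0.15) and -0.26 (SE 0.16). The second probe of Trim25 had a difference of 0.60 (SE 0.16), from -1.61, -1.48 and -1.58 after saline to -1.12, -1.11 and -0.63 after antithrombin, while the brightest had -0.24. The second probe of Zbp1 stood at -0.49, -0.58 and -0.50 in the saline mice and at 0.83, 0.65 and 0.54 in the antithrombin mice. That is a difference of 1.19 (SE 0.12) with no overlap and with tight groups, the largest of any probe of these genes, at a limma adjusted p of 0.1 over all 40522 probes, of which 21.9% had an unadjusted p under 0.05. The files do not say which part of the transcript a probe reads, and which probe follows the gene was not tested. The probes of Isg20 went together, with differences of 0.45 and 0.52, as did those of Ifi35 (0.27 and 0.36) and of Irf9 (0.25 and 0.32). All 4 Ddx58 probes and both Rsad2, Xaf1, Tap1, Irf7 and Stat2 probes had saline mouse 2 as the lowest saline mouse.

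**Figure D3:**
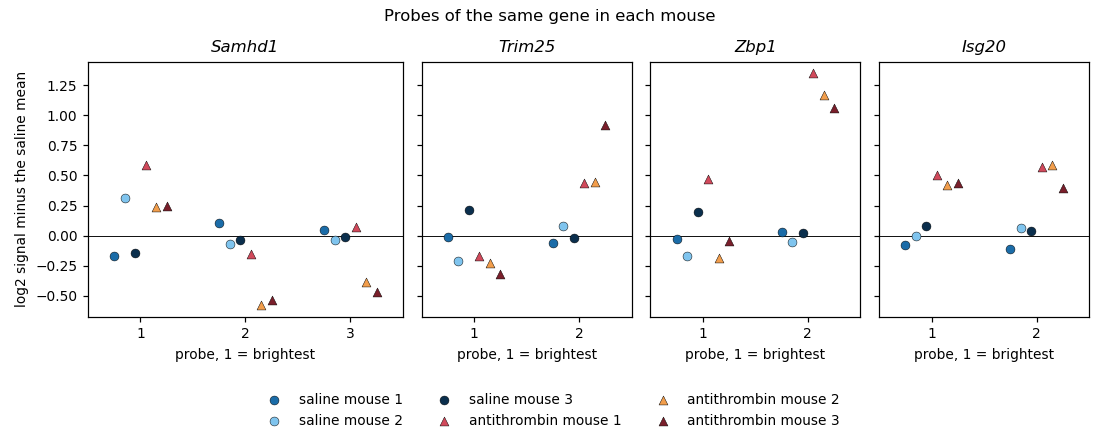
Log2 signal of each probe of Samhd1, Trim25, Zbp1 and Isg20 in each mouse, minus the saline mean of that probe; circles are saline mice and triangles antithrombin mice. The second probe of Zbp1 separates the groups by 1.19 while the brightest does not, the probes of Samhd1 and Trim25 differ in direction, and both probes of Isg20 lie higher in the antithrombin mice.

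Upstream in the pathway, the interferons themselves were dim. Of 19 interferon genes listed, 11 were tested and 6 with a probe, among them Ifnb1, were not well above background on any array, so Ifnb1 has no measured difference here. Of the 11 tested, 0 had an unadjusted limma p under 0.05 with a positive difference, where 8.73% of all genes did. With a negative difference there was 1, where 12.9% of all genes were so called. It was the type III interferon Ifnl3, at -0.29 (SE 0.11, limma adjusted p = 0.2). Interferon alpha genes are near-identical copies, so their probes may share signal. Next came Ifna15 (-0.41), Ifna2 (-0.27) and Ifnk (0.32), each with an unadjusted p above 0.05.

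The receptor genes had overlapping groups. Ifnar1 stood at 2.59, 2.68 and 2.77 after saline and at 2.72, 2.73 and 2.64 after antithrombin (difference 0.01, SE 0.10). Ifnar2 stood at 3.16, 2.86 and 3.14 against 3.01, 2.81 and 2.94 (difference -0.13, SE 0.13). Of the 8 receptor and JAK-STAT genes 0 passed an unadjusted p of 0.05 in either direction (limma). At that p 8.73% of all genes were higher and 12.9% lower. The smallest p of the 8 belonged to Tyk2 (0.39, SE 0.17) and Stat3 (-0.24, SE 0.12). Ifnlr1, a receptor chain for type III interferon, differed by -0.08 (SE 0.10).

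Among 15 genes of sensing and interferon induction, 3 were higher and 1 was lower (limma, unadjusted p under 0.05), where 8.73% and 12.9% of all genes were, and 0 passed the adjustment. Of these 15, Cgas and Ikbke passed it without saline mouse 2 (limma adjusted p = 0.033 and 0.0293), where 4.65% of all genes were higher past it. Saline mouse 2 was the highest saline mouse in both genes, so leaving it out had to raise their differences. Cgas, the cytosolic DNA sensor, stood at 0.61, 0.98 and 0.37 after saline and at 1.32, 1.22 and 1.17 after antithrombin (difference 0.58, SE 0.17, adjusted p = 0.162). Its adaptor Sting1 differed by 0.42 (SE 0.14, adjusted p = 0.174), and the kinase Ikbke by 0.62 (SE 0.25, adjusted p = 0.223). The endosomal RNA receptor Tlr7 differed by -0.55 (SE 0.20, adjusted p = 0.193). In none of these 15 genes was saline mouse 2 the lowest mouse. Irf3 stood at 4.20, 4.33 and 4.05 against 4.29, 4.29 and 4.45 (difference 0.15, SE 0.12). Of 9 negative regulators, 0 were higher and 1 was lower (limma, unadjusted p under 0.05), where 8.73% and 12.9% of all genes were. The lower gene was the ubiquitin ligase Rnf125 at -0.34 (SE 0.14). Without saline mouse 2, 3 of the 9 were higher and 2 lower, where 13.5% and 18.3% of all genes were. Otud5 differed by -0.27 (SE 0.12), Pias1, an inhibitor of STAT signalling, by -0.20 (SE 0.10), and Socs1, the feedback inhibitor of JAK kinases, by 0.31 (SE 0.15).

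Other interferon targets differed from list to list. The oligoadenylate synthetases, which activate RNase L, had a median difference of 0.77 over 11 tested genes, 7 of them higher at an unadjusted p under 0.05, where 8.73% of all genes were, and 0 past the adjustment (limma). When saline mouse 2 was left out, 3 passed it, where 4.65% of all genes were higher past it. Saline mouse 2 was the highest saline mouse in these 3, so leaving it out had to raise their differences. Oas1a stood at 3.24, 3.94 and 3.36 after saline and at 4.81, 4.30 and 4.48 after antithrombin (difference 1.01, SE 0.22, limma adjusted p = 0.153). The difference was 1.34 (SE 0.22) for Oas1g, 0.95 (SE 0.20) for Oas3 and 0.77 (SE 0.15) for Oasl2, each without overlap. The Oas1 genes are close copies of each other, so their probes may share signal. The median of the family in saline mouse 2 was 0.06 above the saline mean, not below it. Over 22 tested genes of interferon gamma and its targets the median difference was -0.0027, and saline mouse 2 was the lowest of the 6 mice in 13; 1 was higher and 4 were lower (limma, unadjusted p under 0.05), where 8.73% and 12.9% of all genes were. Cxcl10, a chemokine, differed by 0.97 (SE 0.24), the kinase Jak2 by -0.30 (SE 0.10), the receptor chain Ifngr1 by -0.27 (SE 0.10) and the GTPase Gbp9 by -0.47 (SE 0.17). The median of this list was -0.28 without saline mouse 2, and leaving that mouse out had to lower the differences of those 13 genes. Then 1 gene was higher and 11 were lower (limma, unadjusted p under 0.05), where 13.5% and 18.3% of all genes were. In that fit 5 passed the adjustment, where 4.65% of all genes were higher and 5.88% lower past it. Of 55 further interferon-stimulated genes tested, 11 were higher (limma, unadjusted p under 0.05) and 0 lower, where 8.73% and 12.9% of all genes were, with a median difference of 0.15. Without saline mouse 2, 11 were higher and 6 lower, where 13.5% and 18.3% of all genes were. Past the adjustment there were then 8, where 4.65% of all genes were higher and 5.88% lower. Saline mouse 2 was the lowest of the 6 mice in 29 of the 55, so leaving it out had to lower those differences. Slfn4, of the Schlafen family, stood at 1.23, 1.84 and 1.50 after saline and at 3.10, 2.64 and 2.78 after antithrombin (difference 1.32, SE 0.20, adjusted p = 0.151). Slfn3 differed by 1.03 (SE 0.17), Ifi205 by 0.66 (SE 0.12) and Uba7, the enzyme that activates ISG15, by 0.58 (SE 0.11), each without overlap. Of 10 further genes of class I presentation 1 was higher and 0 lower (limma, unadjusted p under 0.05). At that p 8.73% of all genes were higher and 12.9% lower. The higher gene was the transactivator Nlrc5 at 0.79 (SE 0.13, limma adjusted p = 0.151). Next came the peptidase Erap1 at 0.27 (SE 0.13) and the immunoproteasome subunits Psmb9 at 0.20 (SE 0.13) and Psmb10 at 0.17 (SE 0.12). Without saline mouse 2, 1 of the 10 was higher and 0 lower, where 13.5% and 18.3% of all genes were. In that fit 1 passed the adjustment, where 4.65% of all genes were higher and 5.88% lower past it.

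**Figure D4:**
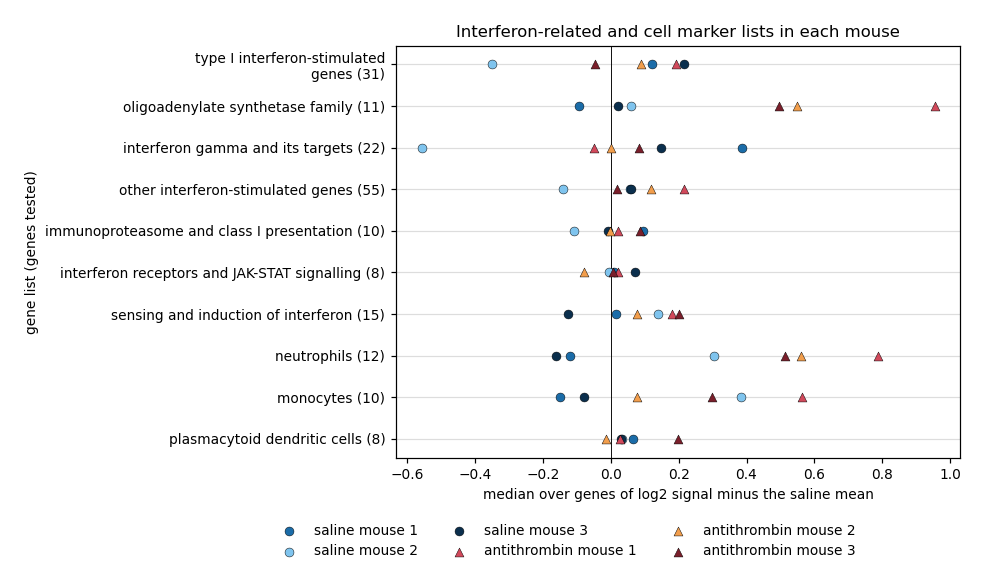
Median over the tested genes of each list of the log2 signal minus the saline mean, in each mouse; circles are saline mice and triangles antithrombin mice. Saline mouse 2 lies at -0.35 for the type I interferon-stimulated genes and at -0.56 for the interferon gamma list, but at 0.30 for neutrophil and 0.38 for monocyte markers.

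Markers of cell types that respond to interferon moved between mice as well. Of 12 neutrophil markers 5 were higher (limma, unadjusted p under 0.05) and 0 lower, where 8.73% and 12.9% of all genes were, with medians of -0.12, 0.30 and -0.16 in saline mice 1, 2 and 3 and 0.79, 0.56 and 0.51 in the antithrombin mice. Their summed linear signal ran from 944 to 1214 in saline mice and from 1139.6 to 1335 in antithrombin mice, in units of the array's 75th percentile. Without saline mouse 2, 9 neutrophil markers were higher, where 13.5% of all genes were, and 4 passed the adjustment, where 4.65% of all genes were higher past it. Of 10 monocyte markers 3 were higher and 0 lower (limma, unadjusted p under 0.05), where 8.73% and 12.9% of all genes were. Without saline mouse 2, 5 were higher and 0 lower, where 13.5% and 18.3% of all genes were. In that fit 3 passed the adjustment, where 4.65% of all genes were higher past it. The monocyte medians were -0.15, 0.38 and -0.08 after saline against 0.56, 0.08 and 0.30 after antithrombin. The summed signal of these markers ran from 726 to 802 against 735 to 830.1. On both lists saline mouse 2 had the highest median of the saline mice, where it was the lowest for most interferon-stimulated genes. Leaving it out therefore had to raise the differences of the markers in which it was the highest saline mouse. Plasmacytoid dendritic cells, the specialised producers of interferon alpha, had marker medians of 0.07, 0.03 and 0.03 after saline and 0.03, -0.02 and 0.20 after antithrombin over 8 markers, of which Bst2 is also one of the 31 genes, and their summed signal ran from 304 to 323 against 293 to 319.7. Each marker of these 3 lists was above background on at least 3 arrays. The part of any cell type in the values of the interferon-stimulated genes was not tested.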

How the data were processed

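Lung RNA of 6 mice was read on 1-colour Agilent arrays, all on 1 slide. The deposited scanner files hold a spot intensity that Feature Extraction had already background-subtracted, and its version is 10.7.3.1 per the file headers but 9.1 per the submitters' processing notes. The deposited log2 value table was checked against the scanner files: once each probe's mean and each array's shift were removed, the values were equal within 0.01 for 100% of 56562 probes. The table is therefore on the log2 scale, up to a constant for each probe and each array. Its column medians run from -0.0369 to 0.0763. Whether each probe was centred cannot be read from this check, which removed the probe means.

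The log2 of the processed intensity minus the array's 75th percentile was used. Control spots and outlier flags were left out and spots of a probe averaged. Probe accessions were matched without version to RefSeq transcripts, which named 32994 of 56605 probes. The brightest probe stood for a gene. Genes and unnamed probes well above background on at least 3 arrays (32456) were compared with limma 3.58.1 in R 4.3.3, with Benjamini-Hochberg adjustment and a threshold of 0.05. On simulated data for this comparison over 32426 genes, 48 of 100 genes changed 2-fold were recovered. Of 100 genes changed 4-fold, 84 were recovered, and 5 unchanged genes were called. The simulated noise was drawn separately for each gene and array. It held no deviation of a whole mouse such as that of saline mouse 2, so these rates may not hold for the measured arrays.

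The interferon-stimulated genes, the pathway lists and the marker lists were chosen with earlier results of these data known. Named in the text are all 33 listed genes, the 4 genes with the smallest p on each pathway list, and Ifnb1, Ifnar1, Ifnar2 and Irf3, while 1 further gene of that rule is not reported here. Epithelial marker names were chosen after their values were seen. The alternatives were other background corrections, scalings, filters, probe rules and variance models, the value table, blocks for mouse number and slide row, and leaving out each mouse. Whether mice were housed or handled in batches is not given in the sources used here.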

Additional observations from a re-analysis of the deposited data

How the results depend on the processing

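Of the 31 interferon-stimulated genes, 0 passed the adjusted threshold of 0.05 (limma) under every alternative except estimated array weights, where 1 did (Isg20, 0.48, adjusted p = 0.0408, where 7.90% of all genes passed), and the leave-one-out fits, where 0 to 1 did. Array weights gave saline mouse 2 the lowest weight, 0.391. The count higher at an unadjusted p under 0.05, 4 as reported, was 6 with the mean of the detected probes, 5 with normexp, quantile normalisation or trended variance, 2 with no filter on dim probes, 2 with the slide row as a block, and 1 to 4 when each mouse was left out. The count lower was 0 to 5, the count of genes without overlap 6 to 15, and the median difference -0.10 to 0.25 when each mouse was left out. Same-numbered mice did not deviate together (correlations -0.01, -0.164 and -0.276), so the numbers do not pair them; with mouse number as a replicate block the count higher was 2.

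The mean of the detected probes turned the sign for Samhd1 (-0.11), Trim25 (0.18) and Parp9 (-0.11) and moved Zbp1 from 0.079 to 0.64 (limma adjusted p = 0.16); array weights turned it for Dtx3l (-0.065) and Parp9 (-0.0041). Leaving out single mice turned it for others. The range was -0.058 to 0.27 for Irf7, -0.16 to 0.31 for Stat2, -0.057 to 0.17 for Ddx58, -0.13 to 0.23 for Dhx58 and -0.12 to 0.21 for Zbp1. For the effectors it was -0.65 to 0.36 for Ifit1, -0.94 to 0.028 for Ifit3, -0.62 to 0.30 for Rsad2, -0.45 to 0.17 for Cmpk2, -0.41 to 0.17 for Xaf1 and -0.12 to 0.32 for Rtp4. For the remaining genes it was -0.20 to 0.33 for Usp18, -0.11 to 0.29 for Herc6, -0.15 to 0.12 for Dtx3l, -0.11 to 0.17 for Parp9 and -0.15 to 0.018 for Psmb8. The cause was not tested.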
